A study of Mus musculus with 4 samples.

Results

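Pulmonary surfactant is the film of phospholipid and protein that lines the alveoli, lowers surface tension at the air-liquid interface and keeps airspaces from collapsing at the end of a breath. Its proteins are made mainly by alveolar type 2 (AT2) cells, which store surfactant in lamellar bodies before secretion, and some of them are also made by club cells, the secretory cells of the small airways. The genes described here are the 4 that encode the surfactant proteins, taken by name as the rows Sftpa1, Sftpb, Sftpc and Sftpd out of 32285 genes in each count table. Sftpc and Sftpb encode SP-C and SP-B, small hydrophobic proteins cut from longer propeptides that speed the spreading of the lipid film. Sftpa1 and Sftpd encode SP-A and SP-D, hydrophilic collectins that bind microbial surfaces and take part in innate defense of the airspace.

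The data are spatial transcriptomes of mouse lung cryosections made with Visium, where polyadenylated RNA is captured in barcoded spots, each a small region that can hold several cells of different types. One section was taken from each of 4 C57BL/6J mice, and the labels describe the tissue as upper pulmonary branches. The Non-Vaped (NV) group was 1 male and 1 female, and the Vaped (V) group was likewise 1 male and 1 female. Mice were bought at 4 weeks of age, and exposure of V mice began at about 8 weeks and lasted 9 weeks. They received aerosol of a Peach Ice flavored e-liquid with 70% vegetable glycerin and 30% propylene glycol, made by JUUL pens, in a whole-body chamber for 4 h a day on 5 days a week. NV mice were not exposed. No transgene or deletion is given for either group, and a mouse, not a spot, is the replicate here, so each group has 2 replicates.

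The tables held 4933 spots, with 473 to 2053 spots and 6957392 to 34308556 unique molecular identifiers (UMIs) per section, and a median of 6259 to 11355 UMIs per spot. Mitochondrial genes took 5.10% of UMIs in the V male section and 9.72% to 10.9% in the other 3. AT2 markers that are not surfactant genes (Lamp3, Slc34a2, Abca3, Etv5 and Cxcl15) summed to 1909 to 3059 CPM, a scale on which 10000 CPM is 1% of the UMIs summed, and all 5 were detected in each section. The V male section stood apart: cardiac muscle markers summed to 18.2 CPM there against 3673 to 7015 CPM in the other 3, and club cell markers to 311 CPM against 2344 to 13777 CPM. Of 5 ciliated cell markers, 3 were at 0 in the V male section, and so were 2 of 7 brown adipose markers. The barcode marks a position on the slide, and section pairs shared 277 to 1167 barcodes. Because sections held such different tissue, levels are given both for whole sections and for alveolar spots. A spot was called alveolar where 7 markers of AT1 and capillary cells summed to at least 2568 CPM, and no surfactant gene was used. This kept 651 of 842, 341 of 473, 1561 of 1565 and 1620 of 2053 spots in the NV male, NV female, V male and V female sections. The median spot held 4482, 4552, 7488 and 5720 CPM of the 7 markers in the same order. Both V sections were thus above both NV sections, and the choice of spots by a fixed threshold was not independent of group.

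In GRCm38 with a GENCODE annotation, whose release may differ from that of the count tables, all 4 are protein-coding genes. Sftpa1 (chr14:41131782-41136452, plus strand) and Sftpd (chr14:41172214-41185149, minus strand) lie close together on chromosome 14. Sftpc (chr14:70520949-70524081, minus strand) lies farther along the same chromosome, and Sftpb (chr6:72304610-72314371, plus strand) is on chromosome 6. The union of annotated exons is 2860 bases for Sftpa1, 1968 for Sftpb, 1034 for Sftpc and 2417 for Sftpd.

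Promoter sequences of 2 of the 4 genes, Sftpa1 and Sftpb, were found in the RefSeq table for GRCm38.p6. They are shown because both genes varied together over spots and because NKX2-1 and FOXA factors, whose own transcripts are given later, are known regulators of surfactant genes. Each runs from 250 bases before the start of transcription to 50 bases after it, on the plus strand, at chr14:41131538-41131837 for Sftpa1 and chr6:72304360-72304659 for Sftpb. Capitals mark the letters CTCAAG, the core read by NKX2-1, the letters TGTTTNNC, part of the forkhead pattern of FOXA factors, and the letters TATAA of a TATA box, each searched on both strands.
Sftpa1: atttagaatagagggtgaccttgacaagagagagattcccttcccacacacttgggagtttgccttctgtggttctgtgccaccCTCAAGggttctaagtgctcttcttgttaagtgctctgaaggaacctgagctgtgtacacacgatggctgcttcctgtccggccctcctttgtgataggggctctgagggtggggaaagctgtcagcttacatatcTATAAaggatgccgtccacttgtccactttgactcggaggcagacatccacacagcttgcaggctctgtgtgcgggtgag
Sftpb: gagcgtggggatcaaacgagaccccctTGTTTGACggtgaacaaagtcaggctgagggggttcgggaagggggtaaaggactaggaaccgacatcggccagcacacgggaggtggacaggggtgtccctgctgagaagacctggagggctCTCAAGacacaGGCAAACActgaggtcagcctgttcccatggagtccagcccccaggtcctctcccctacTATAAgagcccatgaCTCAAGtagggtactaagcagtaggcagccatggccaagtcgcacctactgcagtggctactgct
The TATAA letters began 30 bases before the start of transcription in both. CTCAAG began at position -166 in Sftpa1 and at -100 and -15 in Sftpb. TGTTTNNC was found in Sftpb alone, at -223 as TGTTTGAC and at -89 on the minus strand, where the plus strand reads GGCAAACA. Among 32851 promoters of 300 bases, 15.9% held CTCAAG, 16.8% held TGTTTNNC and 24.9% held TATAA, so that a match is common and is a description only.

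Surfactant transcripts took a large share of all RNA captured. The 4 genes together held 3.41%, 2.26%, 4.55% and 2.32% of UMIs in the NV male, NV female, V male and V female sections. Within alveolar spots the shares were 4.21%, 3.68%, 4.55% and 3.54% in the same order. The sections were closer together in alveolar spots, where the lowest was that of the V female and the highest that of the V male. Such sums cannot tell fewer AT2 cells from less surfactant RNA per cell.

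Sftpc was by far the most abundant of the 4. It made up 79.6%, 77.9%, 79.2% and 77.3% of their UMIs in the NV male, NV female, V male and V female sections. Its level was 27118 CPM, 17629 CPM, 36068 CPM and 17910 CPM in the same order, and 33594, 28735, 36069 and 27562 CPM in alveolar spots. Both male sections were above both female sections on each scale, whereas V and NV overlapped.

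Sftpb stood at 3429, 2157, 3966 and 2147 CPM in the NV male, NV female, V male and V female sections. In alveolar spots it was at 4186, 3466, 3966 and 3229 CPM. The NV male was highest among alveolar spots and the V male highest among whole sections, and the groups overlapped in both.

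Sftpa1 was at 2933, 2399, 4611 and 2691 CPM in the NV male, NV female, V male and V female sections. In alveolar spots it was at 3594, 3864, 4611 and 3997 CPM. There both V sections were above both NV sections, by a margin between the V female and the NV female that was small beside the distance between the V sections.

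Sftpd was the least abundant, at 585, 433, 894 and 430 CPM in the NV male, NV female, V male and V female sections. In alveolar spots it was at 723, 723, 894 and 652 CPM. The V sections were the highest and the lowest of the 4, and the NV sections lay between them in alveolar spots.

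**Figure D1:**
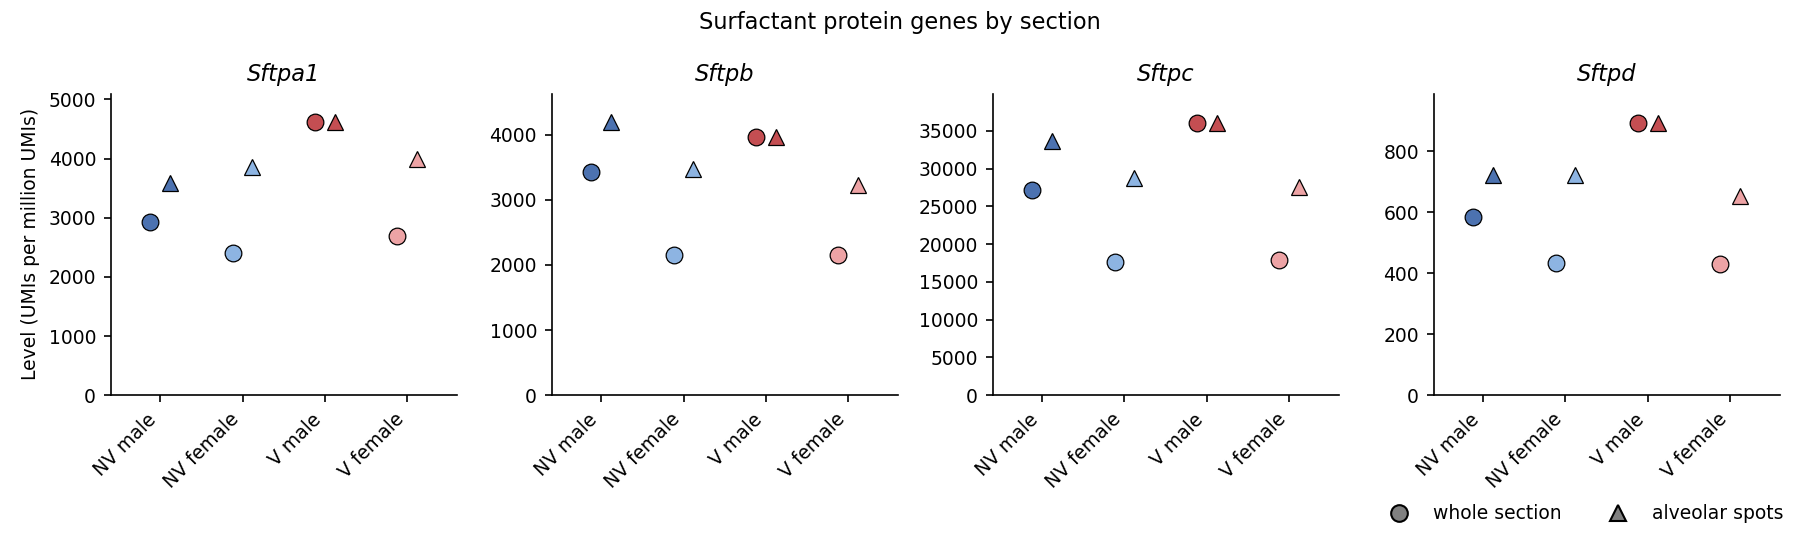
Level of each surfactant protein gene in CPM (vertical axes from 0, one panel per gene) in the 4 sections, with circles for whole sections and triangles for alveolar spots. Sftpc ranged from 17629 to 36068 CPM over whole sections and from 27562 to 36069 CPM over alveolar spots, and circle and triangle stand at the same height in the V male, where nearly every spot was alveolar.

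To set the genes against each other, levels were divided by exon length. Per kilobase of exon, Sftpc was at 26226, 17049, 34882 and 17321 CPM in the NV male, NV female, V male and V female whole sections. Sftpb followed at 1742, 1096, 2015 and 1091 CPM per kilobase, and Sftpa1 at 1026, 839, 1612 and 941. Sftpd was last at 242, 179, 370 and 178 CPM per kilobase. The order Sftpc, Sftpb, Sftpa1, Sftpd held in all 4 sections. Sftpb was thus above Sftpa1 within each section, although their ranges over the sections overlapped. The ranges of the other neighbors did not overlap. The kit reads transcripts near their 3' end, so that division by length lowers long genes, and by UMIs alone Sftpa1 exceeded Sftpb in 3 of 4 sections, all but the NV male.

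The balance of the 2 collectin genes and 2 hydrophobic protein genes differed between sections by more than counting error but, for most members, not by group. Sftpa1 made up 8.61%, 10.6%, 10.1% and 11.6% of the UMIs of the 4 genes in the NV male, NV female, V male and V female whole sections. Sftpb made up 10.1%, 9.53%, 8.71% and 9.26%, and Sftpd 1.72%, 1.92%, 1.96% and 1.86%. The share of Sftpb was lower in both V sections than in both NV sections, and shares of the other 3 genes overlapped between the groups. For each 100 UMIs of Sftpb there were 85.6, 111, 116 and 125 UMIs of Sftpa1 in the NV male, NV female, V male and V female. Among alveolar spots the ratio averaged 98.7 ± 18.1 (SD, n = 2) over the NV mice and 120.0 ± 5.32 (SD, n = 2) over the V mice. The groups did not overlap (two-sided exact permutation p = 0.333, the smallest that 2 mice against 2 can give), and the NV mice differed from each other by more than the NV female did from either V mouse.

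Spread over spots was described after each spot was thinned at random to 3000 UMIs, which left out 111, 52, 202 and 224 shallower spots of the NV male, NV female, V male and V female sections. Sftpc was found in every remaining spot of every section. Its median was 90, 71, 101 and 71 UMIs per spot in the NV male, NV female, V male and V female. The lowest spots of those sections held 6, 2, 40 and 3 UMIs of Sftpc, and the highest 213, 262, 266 and 237. The V male section was the one without spots of very low Sftpc.

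Sftpa1 had a UMI in 98.5%, 97.9%, 100% and 98.5% of thinned spots, and Sftpb in 98.2%, 95.2%, 100% and 96.9%, in the order NV male, NV female, V male and V female. Their medians were 9, 8, 13 and 10 UMIs per spot for Sftpa1 and 11, 8, 11 and 7 for Sftpb. Sftpd had a UMI in 75.5%, 67.5%, 89.7% and 71.0% of spots, with medians of 1, 1, 2 and 1. Detection of Sftpd moved with depth: its mean share over the sections was 43.5% at 1000 UMIs per spot, 86.8% at 5000 and 89.8% without thinning. The unthinned means of Sftpa1, Sftpb and Sftpc were 98.7%, 98.7% and 99.8%.

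Beyond counting error, Sftpa1, Sftpb and Sftpc varied over spots by similar amounts within a section. Sftpd varied the most of the 4 in every section but the NV male. The coefficient of variation of Sftpc after subtraction of counting variance was 47.8%, 59.4%, 28.5% and 52.2% in the NV male, NV female, V male and V female. The other members gave 42.1%, 60.0%, 26.8% and 46.8% for Sftpa1, 44.1%, 58.5%, 25.8% and 51.8% for Sftpb, and 47.5%, 64.0%, 36.0% and 56.9% for Sftpd. The V male section was the most even for each gene and the NV female the least even. Among alveolar spots Sftpc varied by 30.7%, 33.3%, 28.5% and 32.1%, so that most of the distance between the V male and the other sections was not seen there. The richest 10% of all thinned spots held 18.7%, 21.1%, 16.3% and 19.3% of the Sftpc UMIs.

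**Figure D2:**
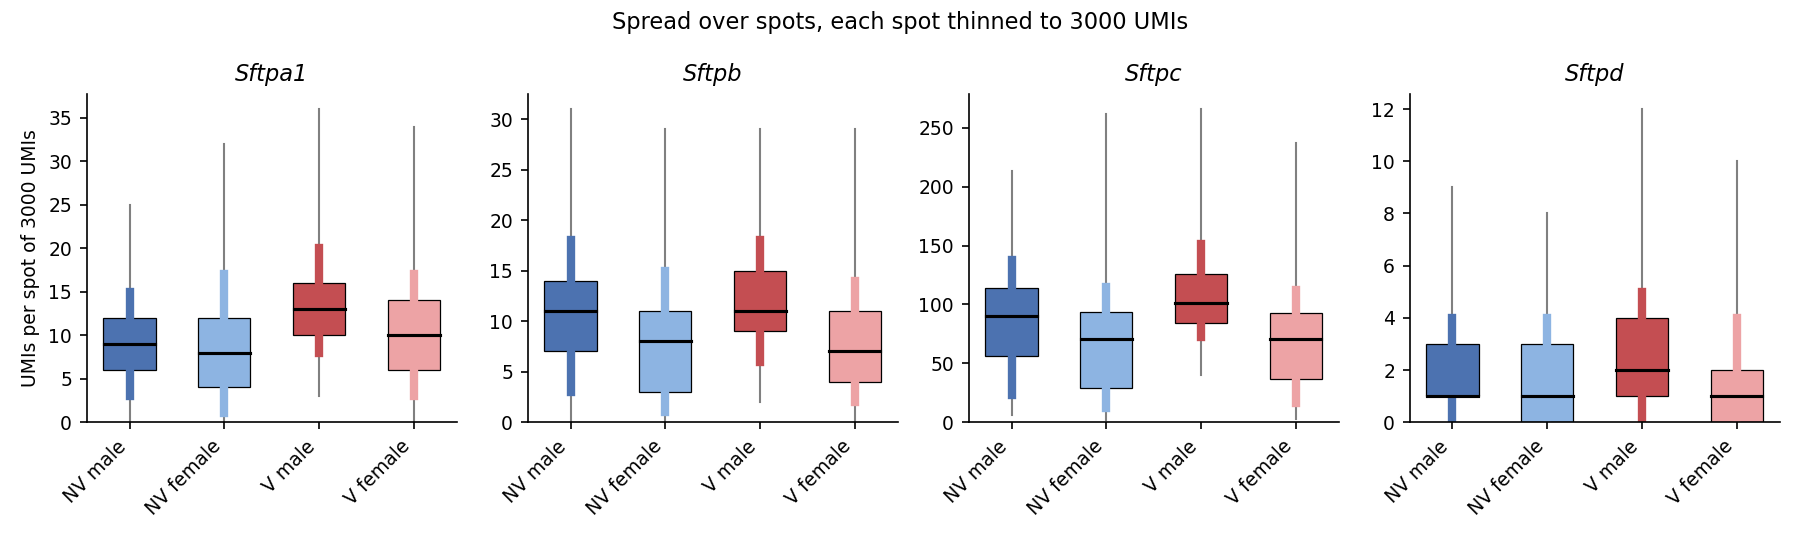
UMIs of each surfactant protein gene per spot after thinning to 3000 UMIs (vertical axes, one panel per gene) in 731, 421, 1363 and 1829 spots of the NV male, NV female, V male and V female sections. Black lines are medians, boxes the middle 50% of spots, thick bars the 10th to the 90th percentile and thin lines the full range, and the lowest spot for Sftpc held 40 UMIs in the V male against 2 to 6 in the other sections.

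The level of Sftpc also moved with the depth of a spot in 3 sections. With spots split by depth into 4 equal groups, from the shallowest to the deepest, it was at 25158, 26041, 25228 and 12542 CPM for the V female and at 22142, 26071, 24956 and 12231 CPM for the NV female. In the NV male it was at 21087, 29797, 33848 and 23494 CPM. In the V male all 4 groups of spots lay between 35367 and 36746 CPM. Heart-rich spots, described later, had medians of 14912, 31055 and 28128 UMIs in the male NV, female NV and female V sections, above those of all spots in the same sections.

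The 4 genes varied together over spots. Pearson's r of the log of 1 plus UMIs at 3000 UMIs per spot was highest on average between Sftpb and Sftpc, at a mean of 0.752 over the sections, and was 0.817, 0.838, 0.557 and 0.796 over the 731, 421, 1363 and 1829 thinned spots of the NV male, NV female, V male and V female sections. It averaged 0.720 between Sftpa1 and Sftpc (0.487 to 0.820 over sections), which in the V female was the higher of these pairs at 0.811, and 0.594 between Sftpa1 and Sftpb (0.337 to 0.724). Pairs with Sftpd were lower, at 0.478 on average with Sftpc, 0.405 with Sftpa1 and 0.403 with Sftpb. For every pair the V male section gave the lowest value. Spots of a section share its library and its tissue, and these coefficients are given as descriptions.

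Among alveolar spots alone the pairs kept their order but with lower values. Sftpb and Sftpc averaged 0.593 (0.552 to 0.653 over sections), Sftpa1 and Sftpc 0.528 (0.479 to 0.610) and Sftpa1 and Sftpb 0.342 (0.268 to 0.421). Sftpd averaged 0.307 with Sftpc, 0.219 with Sftpa1 and 0.203 with Sftpb. In these spots the V male no longer stood below the rest.

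Low counts lower a correlation, and pairs with Sftpd were closer to the other pairs once counting variance was taken out. For this the covariance of thinned UMIs, corrected for the fixed total per spot, was scaled by both variances less their counting variance. It was taken on UMIs and not on their logs, so that the values differ from the r above in scale as well. The means over all spots were 0.948 for Sftpb with Sftpc, 0.869 for Sftpa1 with Sftpc, 0.828 for Sftpa1 with Sftpb, 0.819 for Sftpd with Sftpc, 0.830 for Sftpd with Sftpa1 and 0.818 for Sftpd with Sftpb. In alveolar spots Sftpb with Sftpc remained highest, at 0.907, and the other 5 pairs lay between 0.675 and 0.784.

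**Figure D3:**
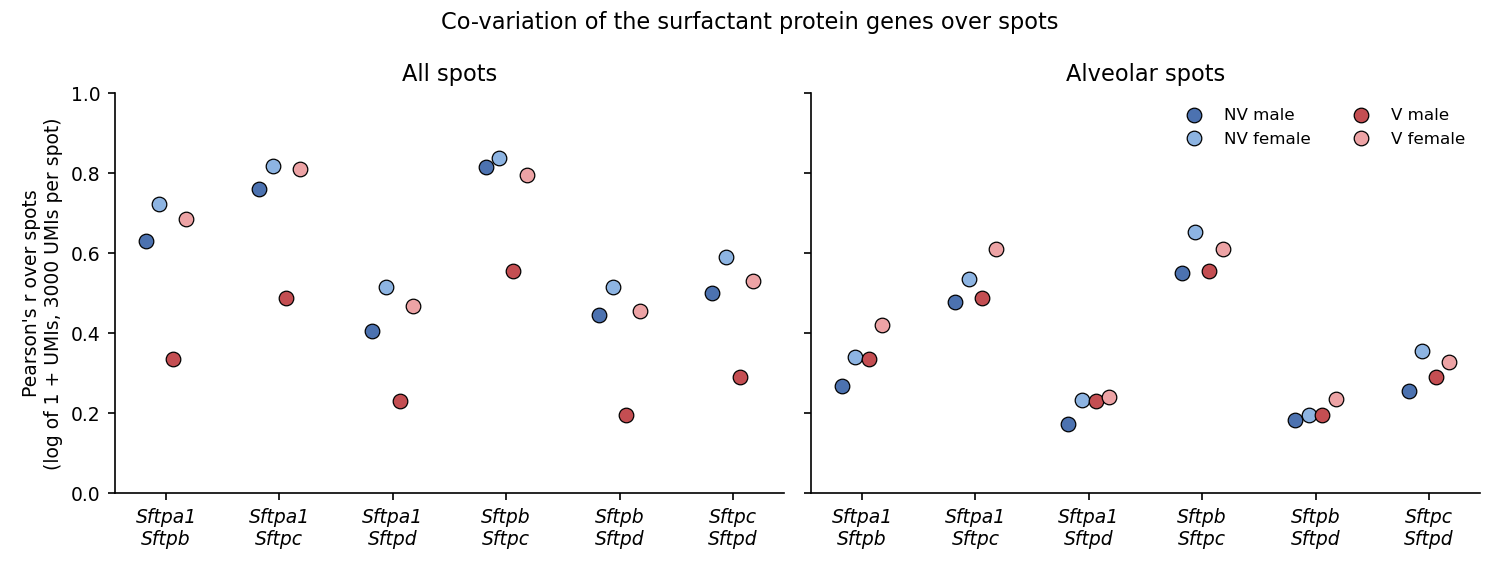
Pearson's r over spots for each pair of surfactant protein genes (vertical axis, log of 1 plus UMIs at 3000 UMIs per spot), with 1 point per section, for all spots (left) and alveolar spots (right). Over all spots Sftpb with Sftpc ran from 0.557 to 0.838 and was the highest pair in 3 of 4 sections, Sftpa1 with Sftpc being higher in the V female at 0.811, and the V male point is the lowest for every pair on the left but not on the right.

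Genes outside the family that followed it most closely were ranked among 4164 genes found in at least 10% of thinned spots of each section. Lyz2, which encodes a lysozyme made by AT2 cells and macrophages, came first for each member, with a mean r over the 4 sections of 0.791 for Sftpc, 0.656 for Sftpa1, 0.643 for Sftpb and 0.416 for Sftpd. Cxcl15, a chemokine of lung epithelium, gave 0.619, 0.512, 0.526 and 0.315 in the same order. Cbr2, a carbonyl reductase abundant in lung, gave 0.552, 0.467, 0.481 and 0.350, and Slc34a2, the phosphate transporter of AT2 cells, 0.539, 0.447, 0.468 and 0.286. The fifth gene was Tmsb4x for Sftpa1 (0.411) and Sftpd (0.283) and Inmt for Sftpb (0.423) and Sftpc (0.504). The median r of all ranked genes was 0.0345 with Sftpa1 and 0.0355 with Sftpb. The mitochondrial gene mt-Co3 had the most negative mean r, from -0.486 with Sftpc to -0.306 with Sftpd, but its sign was not the same in every section, and its highest value was 0.191 with Sftpc. Within alveolar spots other genes were the most opposite, namely Lpl for Sftpa1 (-0.083) and Gm42418 for Sftpb (-0.12), Sftpc (-0.11) and Sftpd (-0.084).

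Lyz2 also led within alveolar spots, at 0.641 with Sftpc, 0.481 with Sftpa1, 0.421 with Sftpb and 0.225 with Sftpd. The summed AT2 markers gave a mean r of 0.722 with Sftpc, 0.609 with Sftpa1, 0.614 with Sftpb and 0.371 with Sftpd over all spots, and 0.539, 0.385, 0.405 and 0.166 over alveolar spots. AT1 markers, from the flat cells of gas exchange, gave 0.463 with Sftpc over all spots, but -0.244 in the V male section. Cardiac muscle markers gave -0.417 with Sftpc and club cell markers 0.180.

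Read along the AT2 markers, the members were higher in spots with more of these markers. From the lowest to the highest of 5 equal groups of spots by AT2 marker UMIs, mean Sftpc went from 33.1 to 121, from 15.7 to 107, from 89.8 to 132 and from 23.3 to 103 UMIs per spot in the NV male, NV female, V male and V female. Sftpd went from 0.830 to 2.32, from 0.353 to 2.45, from 2.25 to 3.30 and from 0.601 to 2.37 UMIs per spot. The V male differed most from the other 3 sections in the lowest group of spots, and the sections lay closer together in the highest.

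Exposure was compared by edgeR's quasi-likelihood test on UMIs summed over each section, fitted across all genes with Benjamini-Hochberg adjustment. The comparison asks whether surfactant transcripts differ between V and NV lung. Over whole sections none of the 4 members passed an adjusted p of 0.05, and neither did any of the 14570 genes tested (0% called), although 248 had an unadjusted p under 0.05. limma on mean CPM also called 0 genes, while DESeq2's Wald test called 8, none a member. The log2 fold change of V over NV was 0.40 (SE 0.34) for Sftpa1, 0.08 (SE 0.41) for Sftpb, 0.21 (SE 0.45) for Sftpc and 0.32 (SE 0.39) for Sftpd, each with an adjusted p of 0.9997 by edgeR. Mean Sftpc was 22373 ± 6710 CPM (SD, n = 2) over NV and 26989 ± 12840 CPM over V mice, and mean Sftpa1 was 2666 ± 378 CPM over NV and 3651 ± 1358 CPM over V mice. For none of the 4 did the groups separate, where 14.7% of genes tested had both V sections above both NV sections and 15.5% both below. Without the V male, the section with few heart and airway transcripts, the log2 fold changes were 0.09 for Sftpa1, -0.30 for Sftpb, -0.25 for Sftpc and -0.17 for Sftpd.

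Among alveolar spots edgeR again called 0% of 14323 genes tested, with 364 at an unadjusted p under 0.05, while limma on mean CPM called 0 and DESeq2's Wald test 9, none a member. The log2 fold change of Sftpa1 was 0.22 (SE 0.15), with means of 3729 ± 191 CPM (SD, n = 2) over NV and 4304 ± 434 CPM over V mice. It was the 1 member with both V sections above both NV sections, as were 15.6% of the genes tested. Sftpb gave -0.08 (SE 0.19), Sftpc 0.04 (SE 0.18) and Sftpd 0.10 (SE 0.21), and the adjusted p was 0.999 by edgeR for all 4. For Sftpb, Sftpc and Sftpd the groups overlapped. With 2 mice in each group, the difference of Sftpa1 cannot be told from the spread between mice.

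**Figure D4:**
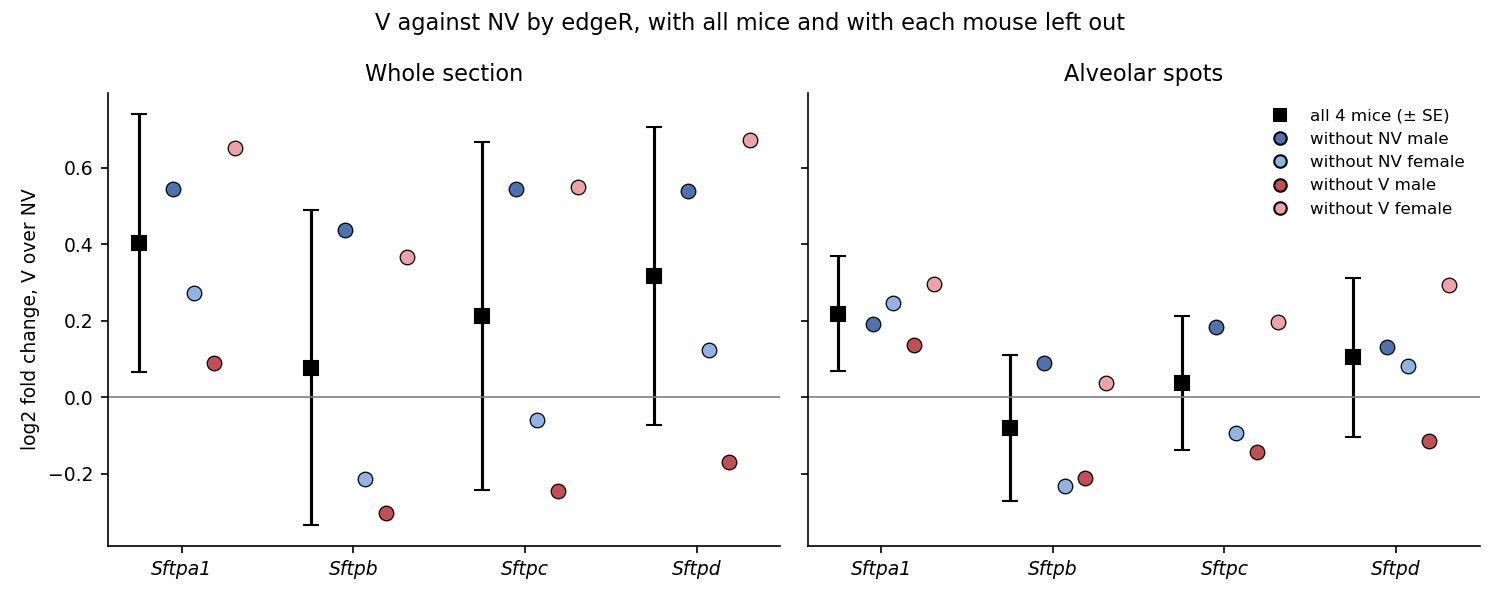
Log2 fold change of V over NV by edgeR for each surfactant protein gene (vertical axis) over whole sections (left) and alveolar spots (right), with squares and bars for all 4 mice and their SE, and points for the fit without each mouse. Over whole sections Sftpb, Sftpc and Sftpd cross 0 when a mouse is left out, and Sftpa1 in alveolar spots stays between 0.14 and 0.30.

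The sexes gave different sizes of change. Between males, whole-section CPM was higher in V by 57.2% for Sftpa1, 15.7% for Sftpb, 33.0% for Sftpc and 52.6% for Sftpd. Between females the changes were 12.2%, -0.445%, 1.59% and -0.751%. In alveolar spots the males differed by 28.3%, -5.25%, 7.37% and 23.5%, and the females by 3.44%, -6.82%, -4.08% and -9.74%. Each of these compares 1 mouse with 1, so that sex, mouse and tissue content of the section cannot be told apart.

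A comparison of females with males, added after the levels were seen and fitted with group as a term, also left the members uncalled. Both female sections were below both male sections for all 4 genes in whole-section CPM, as were 22.7% of 14570 genes tested. The log2 fold change of female over male was -0.41 (SE 0.25) for Sftpa1, -0.65 (SE 0.24) for Sftpb, -0.69 (SE 0.27) for Sftpc and -0.62 (SE 0.24) for Sftpd, with adjusted p from 0.561 to 0.604 by edgeR. No gene was called lower or higher in females (0%), and 1229 had an unadjusted p under 0.05 in either direction. DESeq2's Wald test called 179 genes in all. In alveolar spots, where 0.014% of genes were called lower in females and 0.00698% higher, Sftpc was at -0.31 (SE 0.09), with an adjusted p of 0.832 by edgeR. Sftpb was at -0.28, Sftpd at -0.23 and Sftpa1 at -0.05 on the same scale.

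Set against the AT2 markers of the same alveolar spots, all 4 members were relatively higher in V. For each UMI of the 5 AT2 markers there were 0.955, 1.04, 1.59 and 1.39 UMIs of Sftpa1 in the NV male, NV female, V male and V female. The ratio for Sftpc was 8.93, 7.70, 12.4 and 9.55, for Sftpb 1.11, 0.929, 1.37 and 1.12, and for Sftpd 0.192, 0.194, 0.308 and 0.226. Both V sections were above both NV sections for each member, by 1.49-fold for Sftpa1, 1.38-fold for Sftpd, 1.32-fold for Sftpc and 1.22-fold for Sftpb, each with an exact permutation p of 0.333, the smallest possible here. The 4 ratios share their denominator and are not separate results. How many of all genes would separate the groups on such a ratio was not counted, and by level in alveolar spots only Sftpa1 did.

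The denominator itself was lower in V. The AT2 markers summed to 3763, 3730, 2899 and 2885 CPM over alveolar spots of the NV male, NV female, V male and V female. Cxcl15 was the largest of them and stood at 1930, 1756, 1214 and 1165 CPM. Lamp3, a lamellar body membrane protein, was at 402, 462, 337 and 359 CPM, and Slc34a2 at 924, 1058, 947 and 968 CPM. With Cxcl15 left out of the sum, the ratio of Sftpa1 was 1.96, 1.96, 2.74 and 2.32 and still did not overlap, whereas Sftpb, Sftpc and Sftpd overlapped between the groups, with Sftpb at 1.05-fold and Sftpc at 1.14-fold. Only Sftpa1 kept V above NV whichever marker was left out among the 5 that were tried.

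Club-rich spots were the 10% of spots in a section with the highest club cell markers, 85, 48 and 206 spots of the male NV, female NV and female V sections. The V male was left out, since its richest spots held only 1034 CPM of club markers, against 72268, 27868 and 55396 CPM in the other sections. None of the 4 members was called in club-rich against alveolar spots in a fit with section as a block, in which 4.08% of 13743 genes were called, 3.59% higher and 0.495% lower. Sftpc was at 73.1%, 89.7% and 34.8% of its level in alveolar spots in the male NV, female NV and female V sections. Sftpa1 was at 78.6%, 76.6% and 47.7%, Sftpb at 85.9%, 99.1% and 43.0%, and Sftpd at 85.0%, 98.0% and 47.1%. In CPM all 4 were below alveolar spots in each section, by far the most in the V female. On the TMM-scaled levels of the fit, Sftpa1 and Sftpc were below in each section, as were 18.3% of genes tested, whereas in the female NV section Sftpb stood at 3348 CPM against 3293 CPM in alveolar spots and Sftpd at 693 CPM against 690 CPM.

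By edgeR the log2 fold change of club-rich over alveolar spots was -0.54 for Sftpa1 (SE 0.15, adjusted p = 0.0558), -0.64 for Sftpc (SE 0.19, adjusted p = 0.0831), -0.42 for Sftpb (SE 0.18, adjusted p = 0.257) and -0.40 for Sftpd (SE 0.17, adjusted p = 0.248). Without the V female the values were -0.29, -0.23, -0.04 and -0.06 for Sftpa1, Sftpc, Sftpb and Sftpd. AT2 markers were at 69.6%, 84.0% and 40.0% of the alveolar level in the male NV, female NV and female V sections. AT1 markers were at 87.8%, 77.0% and 43.5%. Both were lowest in the V female, as the members were. From the NV male to the NV female, AT2 markers, Sftpb, Sftpc and Sftpd were higher, and AT1 markers and Sftpa1 lower. The AT1 markers Ager, Hopx, Rtkn2 and Clic5 also chose the alveolar spots, so a lower AT1 level elsewhere was partly built in. The part of these markers in the result was not tested. Of the club-rich spots, 76, 40 and 115 also reached the alveolar marker level, so that a spot could hold both tissues, and 1, 0 and 28 spots were also among the heart-rich spots described next.

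Within club-rich spots the mix of members was tilted in the V female, where Sftpc made up 73.0% (95% exact interval 72.7% to 73.3%) of the 4 against 77.9% and 78.4% in the NV male and NV female. Sftpa1 made up 14.3% there against 8.92% and 9.13%, and Sftpb 10.4% against 11.3% and 10.4%. These intervals cover counting error only, and 1 section shows the tilt. Whether the tilt was confined to club-rich spots cannot be read from these sums. In V female spots other than alveolar, some of them club-rich, Sftpc made up 74.2% and Sftpa1 13.7%.

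Heart-rich spots were those rich in cardiac muscle, a tissue that is not known to make surfactant proteins. They were the 10% of spots with the highest cardiac muscle markers, again 85, 48 and 206 spots, with 22415, 22806 and 14153 CPM of those markers in the male NV, female NV and female V sections. The V male was left out, with 134 CPM in its richest spots. Sftpc was still found in each heart-rich spot of 3000 UMIs, at a median of 18, 11 and 17 UMIs, and Sftpd in 37.1%, 22.9% and 32.8% of them. A low count of these genes in a spot is read against this level. Heart-rich spots also held AT2 and AT1 markers, given next. Lung tissue within such a spot and transcripts from elsewhere cannot be told apart here.

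All 4 members were lower in heart-rich spots. Sftpc was at 16.4%, 11.9% and 23.8% of its alveolar level in the male NV, female NV and female V sections. Sftpa1 was at 18.2%, 13.0% and 28.1%, Sftpb at 19.9%, 13.3% and 26.3%, and Sftpd at 17.7%, 8.69% and 22.2%. The V female held the most surfactant RNA in heart-rich spots and the NV female the least, for each member. AT2 markers followed, at 18.1%, 14.3% and 25.6%. AT1 markers were at 24.8%, 18.0% and 28.1%, but some of them also chose the alveolar spots, so a lower level elsewhere was partly built in. Of the heart-rich spots, 7, 0 and 45 also reached the alveolar marker level.

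The log2 fold change of heart-rich over alveolar spots was -1.87 for Sftpa1 (SE 0.19, adjusted p = 3.34e-09), -1.85 for Sftpb (SE 0.19, adjusted p = 2.65e-09), -2.05 for Sftpc (SE 0.24, adjusted p = 4.74e-08) and -2.15 for Sftpd (SE 0.18, adjusted p = 3.35e-11) by edgeR. In that fit 44% of 13678 genes were called, 3191 higher and 2825 lower, the latter 20.7% of those tested. In all 3 sections 35% of genes tested were below their alveolar level, as the 4 members were, and 31.2% were above it. The split depends on scaling. With total UMIs alone the median of all genes moved from -0.04 to -0.55, the calls were 1699 higher and 7373 lower, and the members were at -2.41, -2.38, -2.58 and -2.68 for Sftpa1, Sftpb, Sftpc and Sftpd.

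**Figure D5:**
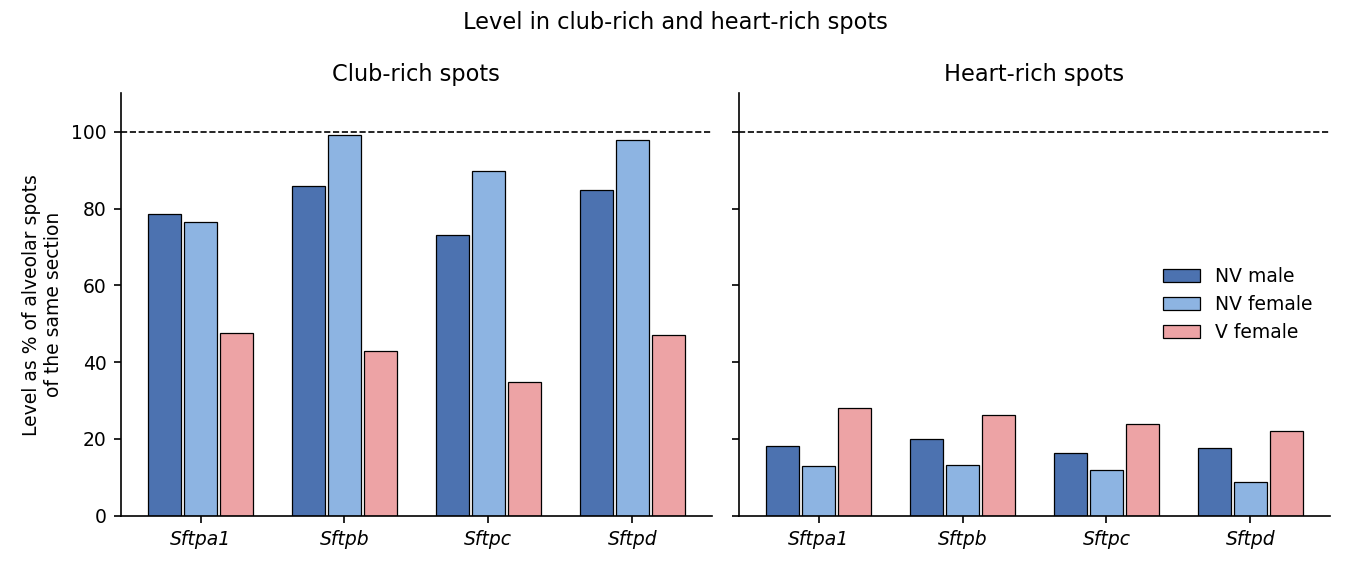
Level of each surfactant protein gene in club-rich (left) and heart-rich (right) spots as a percentage of its level in alveolar spots of the same section (vertical axis from 0, dashed line at 100), with 1 bar per section and no error bars because each is a single sum. Heart-rich spots held 8.69% to 28.1% of the alveolar level, and club-rich spots 34.8% to 99.1%, with the V female lowest for every gene on the left.

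The composition of the 4 in heart-rich spots was close to that of alveolar spots but not equal to it. Sftpc made up 77.5% (95% exact interval 76.7% to 78.2%), 76.9% (75.9% to 77.8%) and 75.8% (75.5% to 76.2%) of the 4 for the male NV, female NV and female V sections. In alveolar spots of the same sections that were neither club-rich nor heart-rich it made up 79.9%, 78.0% and 78.0%. Sftpa1 made up 9.16%, 11.5% and 12.8% in heart-rich spots against 8.52%, 10.7% and 11.1% in those alveolar spots. Thus Sftpa1 took more and Sftpc less in each of the 3 sections.

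The other genes of the surfactant pathway were read from the same fits, and in the comparison of V with NV no gene of any list was called. Of the 7 genes of propeptide processing and the lamellar body, 3 had a positive and 4 a negative log2 fold change in alveolar spots, with a median of -0.0035 against 0.010 for all genes. Ctsh, a protease that trims the SP-B and SP-C propeptides, was at 326, 276, 348 and 260 CPM over alveolar spots of the NV male, NV female, V male and V female, and its log2 fold change was 0.02 (SE 0.22). Lamp3 was at -0.30 (SE 0.18) and Napsa, the napsin A protease of SP-B processing, at 0.22 (SE 0.20). Of the 8 genes of phospholipid synthesis, 4 were positive and 4 negative, with a median of -0.05. Scd1 and Fasn, enzymes of fatty acid synthesis that fat tissue also expresses, were at -0.41 (SE 0.63) and 0.60 (SE 0.97). Scd1 stood at 1945, 3664, 937 and 3200 CPM in the same order, so that the sexes stood farther apart than the groups.

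Of the 9 regulators of transcription, 4 were positive and 5 negative, with a median of -0.0044. Nfib was at 0.14 (SE 0.19), Etv5 at -0.40 (SE 0.21) and Nkx2-1, the master regulator of lung epithelium, at -0.18 (SE 0.17). Of the 11 genes of uptake, clearance and receptors, 5 were positive and 6 negative, with a median of -0.11. Adgrf5, a receptor of AT2 cells that limits the surfactant pool, was at 765, 767, 1071 and 655 CPM in the same order, and its log2 fold change was 0.18 (SE 0.26). Cd93 was at -0.11 (SE 0.19) and the chaperone Calr at -0.14 (SE 0.22). Of the 6 other collectins and Sfta2, 4 could be tested and 1 was positive, with a median of -0.11. Sfta2, a small secreted surfactant-associated protein, was at 196, 218, 218 and 200 CPM, and Colec12 was at -0.19 (SE 0.16). Mbl2 and Colec10 were near 0 in each section and not tested.

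In alveolar spots 1 list gene had both V sections above both NV sections, as did 15.6% of all genes tested, and Abca3, Lamp3, Rab38, Lpcat1, Nkx2-1, Etv5, Sirpa, Lrp1 and Colec12 had both V sections below, as did 15.9% of all genes. The gene above was Marco, a scavenger receptor of alveolar macrophages, named after its values were seen. Its level in alveolar spots was 15.8, 11.0, 54.5 and 31.4 CPM in the NV male, NV female, V male and V female. Its log2 fold change was 1.66 (SE 0.34), with an adjusted p of 0.999 by edgeR, and it was not called.

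Between kinds of spots the lists did not follow the members as 1 block. In heart-rich spots, 5 of 7 processing and lamellar body genes were lower: Lamp3 (-1.89), Napsa (-1.73), Abca3 (-1.25), the lipid transporter of lamellar bodies, Rab38 (-1.04) and Ctsh (-0.66). In the same fit 20.7% of all genes were called lower and 23.3% higher. These and the calls that follow had adjusted p from 1.38e-11 to 0.0291 by edgeR. The median of the list was -1.04, where the median of all genes was -0.04. Of the 9 regulators, 5 were lower, namely Nkx2-1 (-1.71), Foxa2 (-1.50), Etv5 (-1.38), Klf5 (-0.96) and Foxa1 (-0.78), and Gata6, which heart muscle also uses, was higher (0.84).

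Phospholipid synthesis was mixed in heart-rich spots, in the fit where 20.7% of all genes were called lower and 23.3% higher. Of its 8 genes, 3 were lower, namely Lpcat1 (-1.63), the acyltransferase that makes the main surfactant phospholipid, Chka (-1.10) and Acsl4 (-1.01), and 2 were higher, namely Chpt1 (1.13) and Fasn (0.49), the change of Fasn being smaller than the shift of all genes under total UMIs. Of the 11 uptake and receptor genes, 6 were lower, from -1.35 for Adgrf5 and -1.30 for Cd93 through Abcg1 (-1.12), Marco (-1.10) and Csf2rb (-0.64) to -0.36 for Sirpa, and Pparg, a regulator that fat cells share, was higher (0.92). Of the 3 tested genes in the last list, Sfta2 (-1.81) and Colec12 (-0.39) were lower and Colec11 was higher (2.11).

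In club-rich spots 1 gene was called in each of 3 lists, of 7 processing genes, 9 regulators and 11 uptake genes, where 4.08% of all genes were called. Napsa was lower (-0.67, adjusted p = 0.0458) and so was the cholesterol exporter Abcg1 (-0.73, adjusted p = 0.0257). Foxa1, a regulator shared by airway epithelium, was higher (0.94, adjusted p = 0.0239). Each adjusted p was by edgeR with Benjamini-Hochberg adjustment. On TMM-scaled levels, Napsa and Abcg1 were below alveolar spots in each section compared, as were 18.3% of genes tested. Foxa1 was not above alveolar spots in every section. Of the 8 phospholipid genes none was called. Nor was any of the 3 tested genes among the other collectins and Sfta2.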

How the data were processed

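UMI counts per gene and spot were analysed in 4 Visium sections. Per the labels and the study's methods, the authors aligned reads with Space Ranger to mm10 and normalised with Seurat 4.0.3, and the deposited tables hold raw counts per spot, with no further filter stated. The members, markers and lists were chosen with earlier results of these data known. Groups came from the labels, and no table column was left unused.

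CPM was taken over the UMIs summed, so that 10000 CPM is 1% of UMIs. Alveolar spots were those where Ager, Hopx, Cldn18, Tmem100, Calcrl, Clic5 and Rtkn2 summed to at least 50% of 5136 CPM, the median over sections of the median spot. Club-rich and heart-rich classes were the top 10% of spots, used where markers reached 2000 CPM and 4 times the other spots, and alveolar spots in either class were left out of those comparisons. Counts summed per section were tested with edgeR 4.0.16 (glmQLFit, TMM, filterByExpr) in R 4.3.3 with Benjamini-Hochberg adjustment over all genes, called at 0.05. The study's methods test single spots, which are not replicates, so sums per section were used instead. DESeq2 1.42.0 and limma 3.58.1 (on log2 of mean CPM plus a pseudocount of 1) were alternatives. For the likeness ranking, the genes named were the 5 with the highest mean r per member; lists were given by counts, with values for genes called and for at most 3 others of highest level. Each section is a different mouse, so p-values of V against NV rest on the spread between these mice. With section as a block, club-rich and heart-rich tests rest on the spread of differences within sections. Each edgeR fit had 2 residual degrees of freedom and borrowed dispersion from all genes. The dispersion prior was worth 26.4 degrees of freedom for heart-rich and 13.4 for club-rich spots, so those small p-values rest largely on it. Exact permutation tests were two-sided. Intervals are exact binomial (95%) and cover counting error only. Thinning used 3000 UMIs per spot (1000 and 5000 as alternatives). The tests were first tried on simulated data with known changes, with 1 dispersion for all genes. Of 200 genes changed by a log2 fold of 2, V against NV recovered 27% over whole sections and 69% in alveolar spots. Club-rich against alveolar spots recovered 90% and heart-rich against alveolar spots 98.5%. A gene not called in V against NV can thus still differ.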

Additional observations from a re-analysis of the deposited data

Results flagged for a closer look

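In 4 results the male pair and the female pair had log2 changes of opposite sign from NV to V, each pair being 1 mouse against 1, and the difference between the sexes was not tested. For Sftpb over whole sections, log2 V over NV was 0.21 in males and -0.01 in females, a difference of 0.22. For Sftpd over whole sections it was 0.61 and -0.01, a difference of 0.62. In both of these the female value was smaller than its counting error (SE 0.013 for Sftpb and 0.029 for Sftpd on the log2 scale), so that no change in females was measured. For Sftpc in alveolar spots it was 0.10 and -0.06, a difference of 0.16. For Sftpd in alveolar spots it was 0.30 and -0.15, a difference of 0.45. TMM is the scaling of the main edgeR fits, and it was applied to these pairs after the data were seen. With TMM-scaled CPM, Sftpd in alveolar spots kept opposite signs, at 0.27 and -0.09, whereas the other 3 had the same sign in both sexes. Under that scaling the male and female values were 0.08 and 0.07 for Sftpb and 0.48 and 0.07 for Sftpd over whole sections, and 0.07 and 0.00 for Sftpc in alveolar spots.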

How the results depend on the processing

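Groups of 2 mice, 1 section each, and a V male section with few heart or airway transcripts set the limits here. Genes called in V against NV numbered 8 over whole sections and 9 in alveolar spots by DESeq2's Wald test, and 6 in alveolar spots with no filter on low counts. Leaving out 1 mouse gave 0 to 811 calls over whole sections (811 without the V female) and 0 to 710 in alveolar spots (710 without the V female, 183 without the V male), in fits where the lone mouse is assumed to vary like the others. Over those fits log2 V over NV ran over whole sections from 0.09 to 0.65 for Sftpa1, -0.30 to 0.44 for Sftpb, -0.25 to 0.55 for Sftpc and -0.17 to 0.67 for Sftpd. In alveolar spots it ran from 0.14 to 0.30 for Sftpa1, -0.23 to 0.090 for Sftpb, -0.14 to 0.20 for Sftpc and -0.11 to 0.29 for Sftpd. Sftpb in alveolar spots also changed sign, to 0.031 at an alveolar marker level of 100% and to 0.0082 over all spots but club-rich and heart-rich; the cause was not tested. Female against male gave 179 calls by DESeq2's Wald test, 3 with total UMIs alone and 3 with no filter over whole sections, and 43 by DESeq2's Wald test in alveolar spots. Club-rich calls numbered 255 by DESeq2's Wald test, 1243 with no filter, 1052 with the top 5% and 331 with the top 20% of spots, and 103 to 1178 with 1 section left out. Members called lower in club-rich spots were Sftpa1 at -0.60 with total UMIs alone (adjusted p = 0.0499 by edgeR). With no filter all 4 were called, at -0.57 for Sftpa1, -0.45 for Sftpb, -0.67 for Sftpc and -0.43 for Sftpd, and with the top 5% of spots 3 were called, at -0.55, -0.59 and -0.86 for Sftpa1, Sftpb and Sftpc. Without the NV male, Sftpa1 (-0.66, adjusted p = 0.0216 by edgeR) and Sftpc (-0.76, adjusted p = 0.0299 by edgeR) were also called. With 1 section left out the club-rich values ran from -0.66 to -0.29 for Sftpa1, -0.63 to -0.04 for Sftpb, -0.90 to -0.23 for Sftpc and -0.58 to -0.06 for Sftpd. Heart-rich calls numbered 9072 with total UMIs alone. Replicate numbers 1 and 2 name the male and the female of each group, the labels do not pair them, and the deviations of same-numbered samples correlated at 0.377 over whole sections and 0.0899 in alveolar spots. With the replicate block 0 genes were called in both, and Sftpa1, Sftpb, Sftpc and Sftpd were at 0.38, 0.08, 0.19 and 0.27 over whole sections and 0.22, -0.08, 0.03 and 0.09 in alveolar spots. Of the members' other log2 fold changes, 146 kept their direction and side of the threshold.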
